A study of Mus musculus with 33 samples.

Results

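Between culture days 7.5 and 8.5 (D7.5 and D8.5), mouse stem cell cultures kept in AGN 193109 (AGN), which acts on retinoic acid receptors (RARs) as an inverse agonist, gained transcripts of cartilage and tendon matrix, of collagen-modifying enzymes and of sterol synthesis. Over the same day they lost transcripts of endoderm and epithelium, of the Nodal pathway and of pluripotency. The comparison set the 3 AGN libraries of D8.5 against the 3 AGN libraries of D7.5, identified by their sample labels, which makes 6 of the 33 libraries of the series, and it used all 17120 genes of the table. The 6 libraries with CD1530, an agonist of RAR gamma, at the same times served to show where the AGN step differed. Much of the step was shared, since 4168 of the 4363 genes called with both agents changed in the same direction.

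The cells were mouse embryonic stem cells that carry a green fluorescent reporter of Scx (ScxGFP); which of the study's reporter lines gave the RNA is not given in the sources used here. They had first formed embryoid bodies with LDN, an inhibitor of BMP receptors, and then received CHIR, an agonist of Wnt signalling, together with LDN to give paraxial mesoderm (PM) at D6. The study also tested AGN and all-trans retinoic acid in the PM phase. There AGN raised the later induction of ScxGFP, whereas all-trans retinoic acid removed almost all of it. Whether the sequenced cultures, those with CD1530 included, received a retinoid ligand before D6 is not given in the sources used here. From D6 every culture was a monolayer in medium with TGFβ1, the hedgehog agonist SAG and FGF2, to which either AGN or CD1530 was added. The labels count days of induction, so their D1.5 and D2.5 are D7.5 and D8.5 here, and each group held 3 replicates that the methods describe as biological. The RNA came from whole cultures, so that fewer cells of a type and less RNA per cell cannot be told apart in any value.

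The 6 AGN libraries held 17568558 to 38120841 counts each. The deepest was AGN D8.5 replicate 1, and the other 32 libraries of the series held 17116084 to 22775275. That deepest library also stood apart in single genes. In it, 17 genes with a group mean over 1 CPM (counts-per-million of the library total, scaled with TMM factors) lay more than 2 on the log2(CPM + 0.1) scale from the mean of the other 2 replicates, 6 of them below and 11 above, whereas the 30 libraries of the other 10 groups had 0 to 3 such genes each, with a median of 0. Replicates 2 and 3 of the same group, each measured against a mean that holds replicate 1, had 9 and 7. Snrpf, a core protein of the spliceosome, was among the genes that were low there, with 20.6, 20.5 and 23.7 CPM at D7.5 and 2.36, 24.5 and 21.1 CPM at D8.5. Most of the 11 genes that were high there were pseudogenes such as Rpl27-ps2, whose reads can also align to the parent gene. Of the 17 genes, 9 were called higher at D8.5 in the test described below. Why this library stood apart was not tested. By correlation of log-scaled CPM, the library least like its replicates was another, CD1530 D6.75 replicate 1, at a mean of 0.9927. AGN D8.5 replicate 1 stood at 0.9964. Both were among the 33 libraries from which the spread was estimated.

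RARs are nuclear receptors that sit on DNA with a retinoid X receptor and switch their targets on when they bind retinoic acid. An inverse agonist holds the receptor in the state that recruits corepressors, so it lowers transcription below that of the empty receptor. Paraxial mesoderm gives rise to sclerotome, the source of the vertebral cartilage, and to syndetome, the source of axial tendons, whose cells express the transcription factor Scx. Fibrocartilage, the tissue of the meniscus and the outer disc, combines the type I collagen of tendon with the type II collagen and the aggrecan of cartilage.

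Genes were called when edgeR's quasi-likelihood test gave an adjusted p under 0.05. Between D7.5 and D8.5 with AGN, 7203 genes were called, 42.1% of those tested, with 3668 higher (21.4%) and 3535 lower (20.6%) at D8.5. Most changes were small, since 862 genes (5.04%) were called with a change of 1 or more in size on the log2 scale, 364 of them higher (2.13%) and 498 lower (2.91%). Over all genes the median change was -0.005 on the log2 scale, with quartiles of -0.22 and 0.18. The 3 D7.5 and 3 D8.5 libraries did not overlap in CPM for 8624 genes (50.4%). The shares of genes called are the background for the gene lists, because in a table where 42.1% of genes were called a list with about that share is not set apart. Without AGN D8.5 replicate 1, 6204 genes were called. With library totals in place of TMM normalization factors the split was 2461 higher and 5176 lower, and the median of all genes moved to -0.09.

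The direct targets of RARs were the first group, because the cultures were under an RAR inverse agonist from D6 on. Of 12 such genes 2 rose and 5 fell with AGN, with a median log2 fold change of -0.64. Without AGN D8.5 replicate 1, 1 rose and 6 fell. Rarb, the gene of the receptor RAR beta and the best known target of the pathway, measured 0.606, 0.790 and 0.494 CPM at D7.5 and 0.162, 0.0510 and 0.159 CPM at D8.5, a fall of 2.21 ± 0.46 on the log2 scale (fit estimate ± SE; adjusted p = 0.000115 in edgeR). It was close to the detection limit at D8.5, where the 3 libraries held 6, 1 and 3 reads. Cyp26a1, which encodes the enzyme that clears retinoic acid, measured 17.3, 17.9 and 17.7 CPM at D7.5 and 3.49, 4.08 and 3.71 CPM at D8.5. Every D8.5 library lay far below every D7.5 library, and the log2 fold change was -2.25 ± 0.08 (edgeR, adjusted p = 2.61e-24).

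Both genes carry a direct repeat of the letters GTTCA with the RAR spacing in their promoters, which is why they are shown. The motif searched was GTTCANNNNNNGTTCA on both strands of the 250 bases before each RefSeq start (GRCm38.p6), and it occurred in 22 of 32851 promoters (0.067%). Of the 9 listed targets that have a promoter in the RefSeq table, it occurred in these 2. In each sequence, written 5′ to 3′ along the gene, the capitals mark the match, and a match is a description of the letters, not evidence of binding in these cells.
Rarb: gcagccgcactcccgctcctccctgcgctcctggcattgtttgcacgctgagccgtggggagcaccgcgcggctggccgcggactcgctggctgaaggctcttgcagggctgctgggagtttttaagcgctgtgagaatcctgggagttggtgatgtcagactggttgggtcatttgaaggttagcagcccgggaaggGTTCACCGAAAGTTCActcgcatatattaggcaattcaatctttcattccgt
Cyp26a1: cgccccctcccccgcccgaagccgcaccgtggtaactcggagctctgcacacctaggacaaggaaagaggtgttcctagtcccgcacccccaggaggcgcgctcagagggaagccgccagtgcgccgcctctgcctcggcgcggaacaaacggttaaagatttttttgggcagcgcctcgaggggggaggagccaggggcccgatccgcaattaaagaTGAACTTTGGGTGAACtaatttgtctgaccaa
In the Rarb promoter, chr14:16575477-16575726 on the minus strand, the match lay 52 to 37 bases before the start. In the Cyp26a1 promoter, chr19:37697558-37697807 on the plus strand, it lay 32 to 17 bases before the start and read on the opposite strand.

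The other RAR targets did not all follow. Nr2f1, an orphan nuclear receptor, fell by 0.83 ± 0.09 on the log2 scale and Rarres1 by 1.11 ± 0.24. Cyp26b1, a relative of Cyp26a1 that also clears retinoic acid, rose from 9.57 ± 0.850 to 11.8 ± 1.58 CPM (mean ± SD, n = 3), a log2 fold change of 0.33 ± 0.11, and was not called without AGN D7.5 replicate 3 (0.25) or D8.5 replicate 1 (0.20). Dhrs3, which reduces retinal to retinol, and Crabp2, which delivers retinoic acid to the receptor, were not called, at -0.30 ± 0.13 and 0.22 ± 0.09; leaving out AGN D7.5 replicate 1 for Dhrs3 (-0.39) and replicate 3 for Crabp2 (0.28) brought each past the threshold. Hoxb1 had 3, 2 and 9 reads at D7.5 and 0, 3 and 2 at D8.5, too few for a fold change. Of 10 genes of retinoid synthesis, transport and receptors, 5 rose and 1 fell. Aldh1a3, a retinal dehydrogenase, made the largest step of them, from 12.8, 11.2 and 10.9 CPM to 65.5, 68.2 and 69.7 CPM (log2 fold change 2.54 ± 0.06; edgeR, adjusted p = 2.23e-31). Every D8.5 library lay more than 5 times above every D7.5 library. Rdh10, which makes the retinal that Aldh1a3 uses, rose by 0.75 ± 0.06.

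Of the 8 cartilage collagens, 7 rose and none fell, against 21.4% of all genes called higher. Their median log2 fold change was 1.18, or 1.01 with Col10a1 at its bound. Col2a1 (ENSMUSG00000022483; GRCm38 chr15:97975602-98004695), the chain of type II collagen, the main fibril of cartilage, measured 579.6, 613 and 595 CPM at D7.5 and 948, 913 and 946 CPM at D8.5. The groups were well apart at a log2 fold change of 0.65 ± 0.04 (edgeR, adjusted p = 1.40e-16). Type IX collagen, which coats the type II fibril, is made of 3 chains that rose unequally. Col9a3 had the largest step of them, from 40.7, 36.2 and 39.5 to 109, 123 and 123 CPM (log2 fold change 1.61 ± 0.06). Col9a2 rose by 1.13 ± 0.06 and Col9a1 by 0.14 ± 0.05, which was not called without AGN D7.5 replicate 3 (0.12) or D8.5 replicate 2 (0.09).
Col11a2, a chain of the type XI collagen that sets fibril width, went from 5.79, 5.35 and 4.74 to 15.4, 12.5 and 14.6 CPM (log2 fold change 1.44 ± 0.13), while Col11a1 rose by 0.86 ± 0.05 and Col27a1, the collagen of the growth plate, by 1.24 ± 0.07. Col10a1, the collagen of hypertrophic chondrocytes, had 2, 3 and 2 reads at D7.5 and 14, 5 and 4 reads at D8.5 and was not called.

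Of 13 cartilage matrix proteins in the table, 9 rose and 1 fell, with a median of 1.40, or 1.58 with genes at the floor set to their bound. Acan (ENSMUSG00000030607; GRCm38 chr7:79053483-79115099), which encodes aggrecan, the proteoglycan that holds water in cartilage, measured 6.40, 7.21 and 5.88 CPM at D7.5 and 28.7, 29.4 and 28.8 CPM at D8.5 (log2 fold change 2.15 ± 0.09; edgeR, adjusted p = 2.45e-22). All 3 D8.5 libraries were above 28 CPM and all 3 D7.5 libraries below 8 CPM. Fmod, fibromodulin, a small proteoglycan of collagen fibrils, measured 96.0, 95.4 and 102 CPM and then 598, 612 and 611 CPM, the largest change among members above the floor at 2.63 ± 0.06. Matn4, a matrilin that links matrix fibrils, measured 5.29, 4.09 and 7.998 CPM and then 34.1, 34.3 and 32.3 CPM (2.54 ± 0.11). Epyc, the proteoglycan epiphycan, rose by 2.27 ± 0.14, Chad, chondroadherin, by 1.76 ± 0.11, and Prg4, the lubricin of joint surfaces, by 1.40 ± 0.16.
Clec3a, a cartilage lectin, had 3, 3 and 1 reads at D7.5 and 94, 79 and 62 reads at D8.5. Set against a floor of 3 counts per library, it was at least 21.75-fold higher at D8.5. Hapln1, the link protein that ties aggrecan to hyaluronan, was not called, with 9.04, 8.79 and 8.59 CPM at D7.5 and 8.503, 9.78 and 8.95 CPM at D8.5 (0.03 ± 0.11, with the other sign at -0.05 under library totals and -0.02 without AGN D8.5 replicate 2). Comp, a pentameric glycoprotein of cartilage and tendon, went the other way, from 2.04, 2.05 and 1.48 CPM to 0.596, 0.510 and 0.688 CPM, and fell by 1.63 ± 0.27.

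The transcription factors of chondrogenesis were less uniform. Of 15, 7 rose and 1 fell (median 0.65). The gene that fell, Alx1, a homeobox factor of head mesenchyme, changed by -1.34 ± 0.53 and was not called, at -0.92 to -1.38, when AGN D7.5 replicate 1 or 2 or D8.5 replicate 2 or 3 was left out. Sox9, the factor that directs chondrocyte fate and drives Col2a1 and Acan, measured 103, 107 and 108 CPM at D7.5 and 118, 107 and 117 CPM at D8.5. These groups overlapped, and the change of 0.11 ± 0.05 was not called, though it was without AGN D8.5 replicate 2 (0.15). Its partners Sox5 and Sox6, which act with Sox9 on the cartilage enhancers, were not called either (-0.18 ± 0.10 and 0.05 ± 0.09, the latter -0.04 under library totals). Sox8, from the same subgroup as Sox9, rose from 8.38, 9.25 and 9.63 to 19.1, 16.2 and 17.5 CPM (0.96 ± 0.10). Dlx5, a homeobox factor of skeletal progenitors, measured 0.992, 1.16 and 0.691 CPM at D7.5 and 11.7, 14.9 and 14.4 CPM at D8.5, one of the 10 largest rises of the table (3.82 ± 0.21; edgeR, adjusted p = 5.00e-17). Runx1 and Runx2, factors of skeletal and blood progenitors and of bone, rose by 0.87 ± 0.07 and 0.80 ± 0.12. Nfib and Nfia, nuclear factor I proteins, rose by 1.02 ± 0.07 and 0.82 ± 0.07.

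Sclerotome and somite factors were split, with 7 of 14 higher and 4 lower (median 0.21). Meox1, which patterns the somite and sclerotome, measured 53.3, 52.6 and 56.1 CPM at D7.5 and 114, 124 and 119 CPM at D8.5, so that it about doubled (1.14 ± 0.05). Nkx3-2, a sclerotome repressor that promotes cartilage, rose by 0.70 ± 0.12, Twist1 by 0.68 ± 0.07 and Foxc2 by 0.61 ± 0.06. The early sclerotome factors Pax1 and Pax9 stood at 15.4 ± 1.42 and 15.4 ± 1.12 CPM at D8.5, and Pax9 was not called (0.12 ± 0.10). Pax1 passed the test at 0.25 ± 0.10, a call lost, at 0.17 to 0.27, when AGN D7.5 replicate 1, 2 or 3 or D8.5 replicate 1 or 3 was left out. Uncx, a marker of the posterior part of each somite, fell by 0.81 ± 0.18 and Meox2 by 0.49 ± 0.10.

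**Figure D1:**
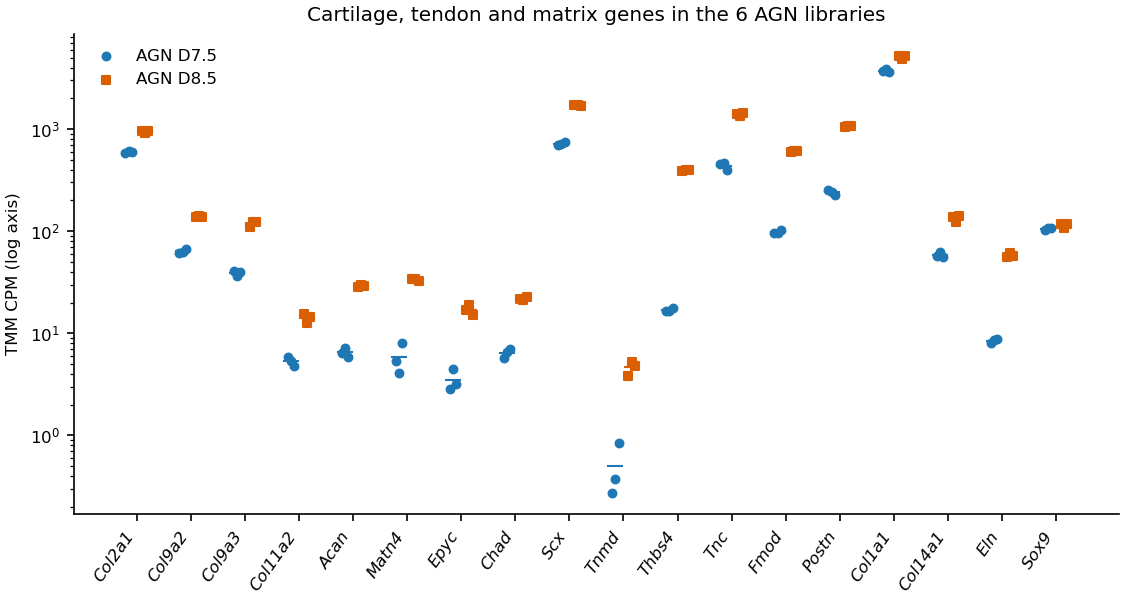
TMM-normalised CPM on a log axis for 18 cartilage, tendon and matrix genes in the 3 AGN libraries of D7.5 (circles) and the 3 of D8.5 (squares), with a line at each group mean. The points of the groups are apart for every gene but Sox9, whose D8.5 values of 118, 107 and 117 CPM overlap its D7.5 values of 103, 107 and 108 CPM; Thbs4 shows the widest gap.

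Of the 14 tendon genes in the table, 13 rose and none fell, with a median log2 fold change of 1.04. Scx (ENSMUSG00000034161; GRCm38 chr15:76457452-76459458), the transcription factor that marks tendon and ligament progenitors, measured 692, 707 and 741 CPM at D7.5 and 1716, 1720.4 and 1667 CPM at D8.5. The replicates of each group lay within a narrow range, and the log2 fold change was 1.25 ± 0.04 (edgeR, adjusted p = 7.62e-27). It also had the largest gain per kilobase of exon of the called protein-coding genes, from 355 to 848 CPM per kb. The other 4 of the 5 largest gains on that scale were Lgals1, a galectin, Serpinh1, and the mitochondrial genes mt-Cytb and mt-Nd1. Thbs4, a thrombospondin of tendon and muscle attachments, made the largest rise of the table under the rule for named genes, from 16.5, 16.6 and 17.7 CPM to 385, 396 and 401 CPM (4.54 ± 0.07; edgeR, adjusted p = 1.24e-37). Tnmd, tenomodulin, the surface marker of maturing tendon cells, measured 0.276, 0.372 and 0.839 CPM at D7.5 and 3.85, 5.197 and 4.82 CPM at D8.5. All D8.5 values were above all D7.5 values, at low levels, with a log2 fold change of 3.17 ± 0.29.
Postn, periostin, which helps assemble collagen, rose from 239 ± 16.0 to 1059.8 ± 9.85 CPM (2.15 ± 0.09), and Tnc, tenascin C, from 437 ± 34.7 to 1404 ± 44.7 CPM (1.68 ± 0.11). The small leucine-rich proteoglycans of tendon rose by less, Dcn by 1.07 ± 0.05, Ogn by 1.04 ± 0.06, Lum by 0.75 ± 0.04 and Bgn by 0.66 ± 0.05. Mkx, the other transcription factor of tendon development, was not called (13.6, 15.2 and 14.96 CPM and then 14.4, 17.2 and 17.8 CPM; 0.15 ± 0.10).

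Of the 11 fibrous collagens, 10 rose and 1 fell (median 0.52). Col1a1, the chain of the type I collagen that makes up most of tendon and bone, was at 3736 ± 129 CPM at D7.5 and 5067 ± 220.5 CPM at D8.5 (0.44 ± 0.10). Its partner Col1a2 rose by 0.68 ± 0.07, Col5a2 by 0.89 ± 0.07 and Col3a1 by 0.30 ± 0.04. Col14a1, a collagen that binds the surface of tendon fibrils, had the largest step, from 57.2, 62.2 and 55.5 to 137, 123 and 141 CPM (1.20 ± 0.08). Col5a3 was the member that fell, from 149 ± 8.45 to 102 ± 5.95 CPM (-0.54 ± 0.11).

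The enzymes and chaperones that make collagen rose with it, 15 of 18 higher and none lower (median 0.50). P4ha3, a subunit of the prolyl hydroxylase that stabilises the collagen helix, measured 29.2, 26.6 and 29.1 CPM at D7.5 and 60.2, 63.4 and 60.4 CPM at D8.5 (1.12 ± 0.06). Plod2, the lysyl hydroxylase of collagen crosslinks, measured 324, 317 and 313 CPM and then 675, 679.6 and 698 CPM (1.10 ± 0.04). Both about doubled. P3h1, a prolyl 3-hydroxylase, rose by 0.96 ± 0.03, Loxl1, a lysyl oxidase of elastic fibres, by 0.87 ± 0.04, Fkbp10, a collagen chaperone, by 0.80 ± 0.04, and Serpinh1, the chaperone HSP47, by 0.70 ± 0.03. Loxl4, Bmp1 and Adamts2 were the members not called.

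Under the rule for named genes, the 10 largest rises also held genes outside the cartilage and tendon lists. Fndc1, a fibronectin domain protein, measured 12.2, 12.3 and 11.8 CPM at D7.5 and 196, 192 and 201 CPM at D8.5 (4.02 ± 0.10). Col8a1, a network-forming collagen of vessel walls, measured 28.3, 27.5 and 24.1 CPM and then 250.2, 250.3 and 259.8 CPM (3.25 ± 0.05). Eln, elastin, measured 8.05, 8.55 and 8.79 CPM and then 56.3, 60.9 and 57.7 CPM (2.78 ± 0.07). In each of these genes the D8.5 libraries were more than 5 times the D7.5 libraries. Ajap1, a protein of adherens junctions, rose by 3.81 ± 0.12, Gcnt4, a glycosyltransferase, by 2.78 ± 0.12, and Dmp1, an acidic protein of mineralised matrix, by 2.69 ± 0.17, the last from 1.31 ± 0.109 to 8.42 ± 0.462 CPM. Dmp1 was the only one of the 6 osteoblast markers in the table that rose. Of the other 5, Alpl, alkaline phosphatase, fell from 105, 103 and 101 to 40.9, 39.9 and 42.6 CPM (-1.32 ± 0.05), Spp1, osteopontin, fell by 0.35 ± 0.04, and Sp7 and Ibsp were not called.

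Actg2, the smooth muscle gamma actin and another of the 10 largest rises, measured 1.71, 1.58 and 1.73 CPM at D7.5 and 19.6, 18.8 and 16.6 CPM at D8.5 (3.46 ± 0.13). It belongs to a list of contractile genes and targets of the mechanosensitive coactivator YAP, of which 10 of 14 rose and 2 fell (median 0.46). Acta2, the smooth muscle alpha actin of myofibroblasts, measured 205, 204 and 206 CPM and then 500.4, 522 and 511 CPM (1.32 ± 0.04). Myh11, smooth muscle myosin, rose from low levels (0.662, 0.511 and 0.444 CPM to 3.44, 1.78 and 2.86 CPM; 2.37 ± 0.28), Cnn1, calponin, by 1.17 ± 0.13, and Tpm1, tropomyosin, by 0.65 ± 0.03. The members that rose were the contractile ones and Lats2, a kinase that restrains YAP; the YAP targets Ccn1 and Ajuba fell by 0.14 ± 0.04 and 0.31 ± 0.03, and Ankrd1 and Amotl2 were not called.

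All 15 sterol synthesis genes rose (median 0.64), and their summed level went from 2143 to 2179 CPM at D7.5 to 3270 to 3391 CPM at D8.5. These genes are switched on together by the factor SREBP2 when cells run short of sterol. Lss, lanosterol synthase, measured 76.7, 75.6 and 78.0 CPM at D7.5 and 150.3, 155 and 156 CPM at D8.5 (1.00 ± 0.04). Cyp51, the demethylase of the next step, measured 189.9, 191 and 195 CPM and then 367, 379 and 375 CPM (0.96 ± 0.03). Both groups were tight and far apart. Hmgcs1, a synthase early in the pathway, rose by 0.47 ± 0.03, and Insig1, which retains the SREBP complex in the ER, by 0.82 ± 0.04.

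Of 16 genes of folding and export in the endoplasmic reticulum (ER), 15 rose and 1 fell (median 0.38). Hspa5, the main ER chaperone, measured 876, 869 and 860.0 CPM at D7.5 and 1304, 1309 and 1288 CPM at D8.5 (0.58 ± 0.03; edgeR, adjusted p = 8.23e-21). Creb3l1, a factor that drives secretion of collagen, rose by 0.77 ± 0.06, its relative Creb3l2 by 0.68 ± 0.07, and Sec24d and Sec23a, coat proteins of the vesicles that leave the ER, by 0.64 ± 0.04 and 0.48 ± 0.04. The member that fell was Ddit3 (CHOP), the factor of prolonged ER stress, from 20.3, 19.4 and 18.8 to 14.6, 16.5 and 18.4 CPM (-0.26 ± 0.09), and it was not called without AGN D7.5 replicate 1 (-0.23) or D8.5 replicate 1 (-0.16).

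The ER stress element, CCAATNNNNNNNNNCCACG, to which NF-Y and ATF6 bind, was searched on both strands of the same promoter windows. It occurred in 37 of 32851 promoters (0.113%), and in 6 of the 14 listed ER genes that have a promoter in the table. The matches are shown in capitals with 20 bases on each side, and 3 of the 7 matches read on the opposite strand of the gene. All 6 genes rose, but so did 15 of the 16 listed ER genes, so the rise does not set the 6 apart. A match is a description of the letters, not evidence of binding in these cells.
Hspa5: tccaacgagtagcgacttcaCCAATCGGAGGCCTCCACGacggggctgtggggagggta
Calr: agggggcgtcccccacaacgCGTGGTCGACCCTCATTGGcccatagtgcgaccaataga
Hsp90b1, match 1: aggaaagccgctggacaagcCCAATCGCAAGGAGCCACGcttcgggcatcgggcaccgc
Hsp90b1, match 2: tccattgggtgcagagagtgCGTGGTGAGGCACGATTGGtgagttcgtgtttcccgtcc
Canx: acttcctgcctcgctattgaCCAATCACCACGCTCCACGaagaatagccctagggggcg
Pdia6: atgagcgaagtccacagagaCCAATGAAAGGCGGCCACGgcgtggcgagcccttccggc
Creld2: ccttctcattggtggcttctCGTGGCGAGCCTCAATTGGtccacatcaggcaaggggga
These windows lie at chr2:34772005-34772063 for Hspa5, chr8:84847055-84847113 for Calr, chr10:86705618-86705676 and chr10:86705513-86705571 for Hsp90b1, chr11:50325780-50325838 for Canx, chr12:17266471-17266529 for Pdia6 and chr15:88819500-88819558 for Creld2, on the plus strand for Hspa5, Pdia6 and Creld2 and on the minus strand for Calr, Hsp90b1 and Canx. The 6 genes rose by 0.58 ± 0.03, 0.38 ± 0.03, 0.31 ± 0.03, 0.26 ± 0.03, 0.34 ± 0.04 and 0.38 ± 0.05 in that order.

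**Figure D2:**
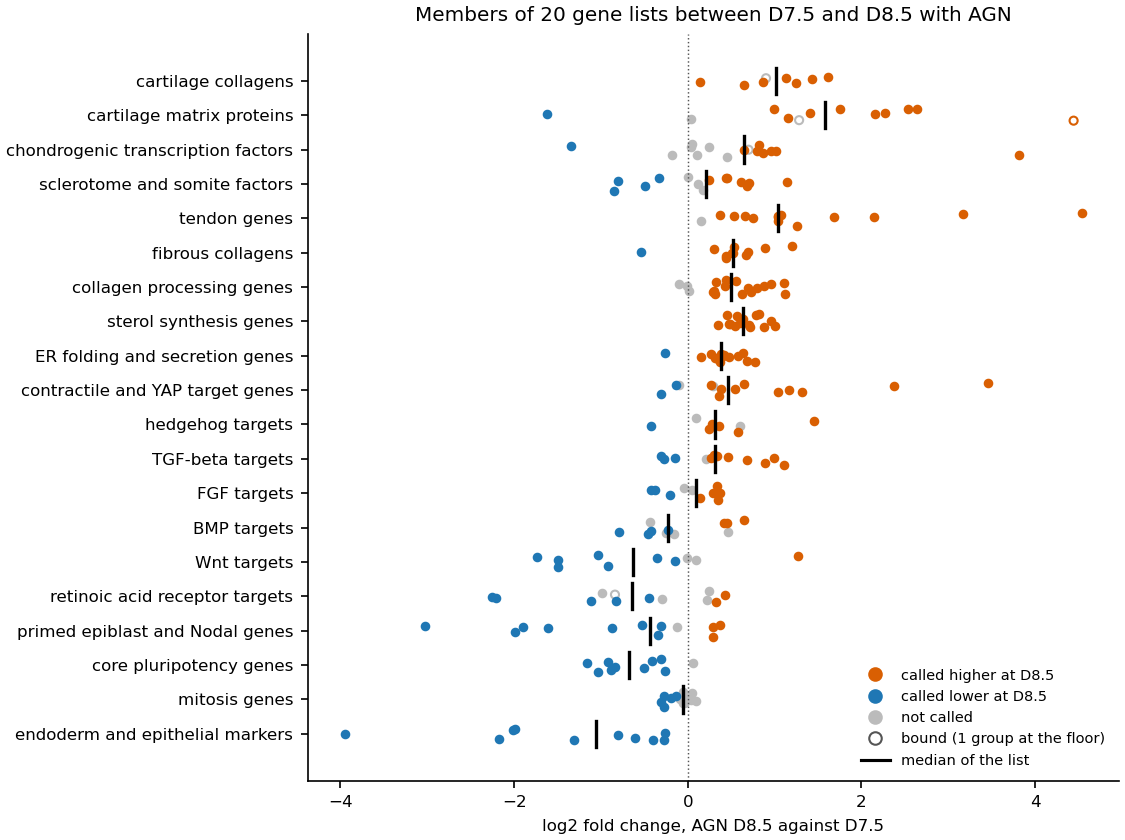
Log2 fold change of AGN D8.5 against D7.5 (horizontal axis) for each member of 20 gene lists (rows), coloured by whether the gene was called higher, called lower or not called, with a bar at the median of each list. Open circles are genes with 1 group at the floor of 3 counts per library, drawn at their bound, and genes with both groups at the floor are left out; sterol synthesis genes all lie to the right of 0 and endoderm and epithelial markers all to the left.

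The signalling pathways that the medium acts on were described by lists of their targets and parts. Of 8 hedgehog targets, 5 rose and 1 fell (median 0.32). Gli1, the transcriptional readout of the pathway that SAG activates, measured 27.5, 27.2 and 26.7 CPM at D7.5 and 38.9, 42.8 and 40.2 CPM at D8.5 (0.58 ± 0.07). Hhip, which binds hedgehog ligands and limits them, measured 8.82, 9.11 and 7.95 CPM and then 22.5, 23.6 and 25.4 CPM (1.46 ± 0.10), and Ptch1, the receptor, rose by 0.28 ± 0.08. Hsd11b2 fell by 0.43 ± 0.05. Of 12 genes of the TGFβ pathway, 8 rose and 3 fell (median 0.32). Among the ligands, Tgfb1 went from 108, 105 and 103 to 231, 219.9 and 229 CPM (1.10 ± 0.04) and Tgfb3 rose by 1.00 ± 0.05, while Tgfb2 fell by 0.27 ± 0.05. The receptor gene Tgfbr2 rose by 0.68 ± 0.06 and the inhibitor Pmepa1 by 0.89 ± 0.05. Tgfbi, a matrix protein named for its induction by TGFβ, was the largest fall, from 928 ± 5.25 to 749 ± 9.52 CPM (-0.31 ± 0.03).

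BMP targets went both ways, with 3 of 11 higher and 4 lower (median -0.23), or 2 lower without AGN D7.5 replicate 3 or D8.5 replicate 3. The 3 that rose were Id1, Id3 and Id2, inhibitors of basic helix-loop-helix factors, by 0.65 ± 0.09, 0.45 ± 0.07 and 0.42 ± 0.06. Grem1, an antagonist of BMP ligands, fell from 134 ± 9.31 to 99.7 ± 7.44 CPM (-0.42 ± 0.07). Of 10 FGF targets, 5 rose and 3 fell (median 0.10). Dusp6, a phosphatase that feeds back on ERK, rose by 0.37 ± 0.03, whereas the feedback inhibitor Spry2 fell by 0.38 ± 0.04, and among the ETS factors Etv4 rose by 0.35 ± 0.04 and Etv5 fell by 0.43 ± 0.03. Of 10 Wnt targets, 1 rose and 7 fell (median -0.64). The Wnt agonist CHIR had been part of the steps before D6 and not of the medium after it. Whether its removal bears on these targets was not tested.

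Among the Wnt targets, Sp5, a direct target and repressor, measured 1.82, 2.05 and 1.48 CPM at D7.5 and 0.433, 0.459 and 0.794 CPM at D8.5 (-1.74 ± 0.22). Dkk1, a secreted antagonist, measured 10.4, 11.1 and 10.5 CPM and then 3.90, 3.31 and 4.02 CPM (-1.50 ± 0.12), and Lgr5, a receptor of R-spondins, measured 4.08, 4.51 and 6.27 CPM and then 2.17, 0.968 and 1.85 CPM (-1.50 ± 0.19). In all 3 the D8.5 libraries were below the D7.5 libraries. Notum, an enzyme that inactivates Wnt ligands, fell by 0.92 ± 0.10 and the factor Lef1 by 0.35 ± 0.05. Axin2, the most used readout of the pathway, was not called, with 7.61, 8.51 and 7.36 CPM at D7.5 and 8.503, 7.39 and 7.15 CPM at D8.5. Nkd1, a Wnt feedback inhibitor, was the member that rose, from 12.7, 14.1 and 13.97 to 33.9, 30.4 and 33.5 CPM (1.26 ± 0.07). Of 10 Notch and segmentation clock genes, 5 rose and 2 fell (median 0.16; 1 fell without AGN D7.5 replicate 3 or D8.5 replicate 2), Hey2 by 0.58 ± 0.08 and Heyl by 0.30 ± 0.06 among the former and Hey1, which fell by 0.40 ± 0.07, among the latter.

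The growth factor list rose in 9 of 15 members and fell in 1 (median 0.37). Igf2, a fetal growth factor, measured 165, 177 and 165 CPM at D7.5 and 413, 395 and 427 CPM at D8.5 (1.28 ± 0.14), Igfbp7 rose by 1.20 ± 0.07, Igfbp3 by 0.92 ± 0.05 and Igf1 by 0.76 ± 0.06. Pdgfrb, the receptor of mural and connective tissue cells, rose by 0.72 ± 0.05, and Igfbp2 fell by 0.33 ± 0.05. Of 14 matrix proteases and inhibitors, 7 rose and 3 fell (median 0.33). Mmp2 and its activator Mmp14 rose by 0.44 ± 0.05 and 0.44 ± 0.05, the inhibitors Timp2 and Timp3 by 0.56 ± 0.06 and 0.53 ± 0.10, and Mmp9, gelatinase B, fell from 134, 139 and 136 to 83.2, 84.4 and 81.6 CPM (-0.71 ± 0.04).

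Immediate early genes, which report recent stimulation, fell in 7 of 12 cases and rose in 2 (median -0.33). Nr4a1 fell by 0.63 ± 0.08 and Klf2 by 0.48 ± 0.06. Egr3 went against the list, from 6.12, 6.14 and 7.21 to 23.7, 25.5 and 27.5 CPM (1.97 ± 0.08).

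The genes that fell were led by markers of other lineages. All 10 endoderm and epithelial markers fell (9 without AGN D8.5 replicate 1), against 20.6% of all genes called lower, and their median was -1.06. Their summed level was 1128 to 1158 CPM at D7.5 and 635 to 644 CPM at D8.5. Krt8, a keratin of simple epithelia, measured 244, 234 and 249.9 CPM at D7.5 and 52.9, 55.2 and 52.8 CPM at D8.5 (-2.18 ± 0.04; edgeR, adjusted p = 3.93e-34). Krt18, its partner in the filament, measured 235, 227 and 241 CPM and then 56.2, 58.1 and 60.0 CPM (-2.02 ± 0.04). In both, the D8.5 libraries lay far below the D7.5 libraries. Foxa2, a pioneer factor of endoderm and notochord, fell by 1.99 ± 0.13, Sox17, an endoderm and endothelial factor, by 1.31 ± 0.12, and Ttr, transthyretin, from 1.93 ± 0.212 to 0.106 ± 0.0549 CPM (-3.95 ± 0.38). Ttr was close to the detection limit at D8.5, where 3 counts per library correspond to a mean of 0.131 CPM, so the size of its fall is uncertain. The adhesion genes Cdh1 and Epcam fell by less, 0.26 ± 0.04 and 0.28 ± 0.04, from 356 ± 13.3 and 192 ± 4.53 CPM.

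The 10 largest falls under the rule for named genes were Spink1, Sfrp5, Hkdc1, Pga5, Tph1, Rgs8, Cer1, Kcnk16, Lhx1 and Abca9. Pga5, a pepsinogen, measured 183, 180.3 and 197 CPM at D7.5 and 17.7, 19.8 and 17.2 CPM at D8.5 (-3.36 ± 0.06; edgeR, adjusted p = 8.41e-36). It had been at 0.850 ± 0.231 CPM in PM and 577 ± 11.4 CPM at D6.75. Spink1, a trypsin inhibitor, measured 10.8, 12.6 and 13.6 CPM at D7.5 and 0.975, 0.662 and 1.06 CPM at D8.5 (-3.75 ± 0.16), after 88.0 ± 2.93 CPM at D6.75. Sfrp5, a secreted Wnt antagonist of foregut endoderm, measured 30.0, 31.2 and 32.7 CPM at D7.5 and 2.49, 2.34 and 2.12 CPM at D8.5 (-3.73 ± 0.10). It too had been higher at D6.75, at 148 ± 7.38 CPM.
Hkdc1, a hexokinase family member, fell by 3.53 ± 0.14, Tph1, the enzyme that starts serotonin synthesis, by 3.30 ± 0.14, Rgs8, a regulator of G proteins, by 3.06 ± 0.12, Kcnk16, a potassium channel, by 3.00 ± 0.21, and Abca9, a lipid transporter, by 2.77 ± 0.22. All 10 had their highest AGN mean at D6.25 or D6.75, so the step from D7.5 to D8.5 was a later stretch of a fall already under way.

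Of 12 genes of the primed epiblast and of Nodal signalling, 8 fell and 3 rose (median -0.44). Cer1, a Nodal antagonist of anterior endoderm, measured 33.4, 31.9 and 30.7 CPM at D7.5 and 4.20, 3.46 and 3.97 CPM at D8.5 (-3.02 ± 0.10). Lefty2, a Nodal antagonist and direct target of the pathway, measured 99.1, 98.4 and 98.9 CPM and then 31.4, 32.97 and 33.2 CPM (-1.61 ± 0.04). Neither pair of groups overlapped. Gsc, a homeobox factor of the organizer, fell by 1.90 ± 0.13, Lefty1 by 0.87 ± 0.05, Eomes, a T-box factor of mesendoderm, by 0.53 ± 0.10, the coreceptor Tdgf1 by 0.34 ± 0.04 and Nodal itself by 0.31 ± 0.06. The 3 that rose were epiblast genes, Fgf5 by 0.29 ± 0.08, Dnmt3b, a DNA methyltransferase, by 0.29 ± 0.04 and Pou3f1 by 0.37 ± 0.08. Otx2, an anterior epiblast factor, was not called (-0.12 ± 0.06). Lhx1, a LIM homeobox factor of the organizer and one of the 10 largest falls, measured 17.5, 18.7 and 18.3 CPM and then 2.65, 2.39 and 2.81 CPM (-2.79 ± 0.12).

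The core pluripotency genes fell in 9 of 10 cases and rose in none (median -0.67). Nanog measured 152, 146 and 152 CPM at D7.5 and 75.1, 70.9 and 74.0 CPM at D8.5 (-1.03 ± 0.04; edgeR, adjusted p = 8.02e-24). Esrrb, a nuclear receptor of naive stem cells, measured 200.2, 206 and 195 CPM and then 88.2, 87.9 and 93.1 CPM (-1.16 ± 0.04), and Sox2 measured 226, 231 and 243 CPM and then 129, 121 and 118 CPM (-0.92 ± 0.04). Each was near a factor of 2 lower, and each had been higher still in PM, with Nanog at 466 ± 7.61 CPM there. Pou5f1 fell by less, 0.41 ± 0.05, to 286 ± 26.3 CPM. Dppa5a, also among the 5 largest losses per kilobase of exon, fell by 0.88 ± 0.06. Lin28a was the member not called. The other 4 of those losses were Ifitm3, Bst2 and B2m, which are interferon and antigen presentation genes, and Nnat, an imprinted gene, and they fell by 0.67 ± 0.05, 0.53 ± 0.05, 0.32 ± 0.06 and 0.82 ± 0.04.

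**Figure D3:**
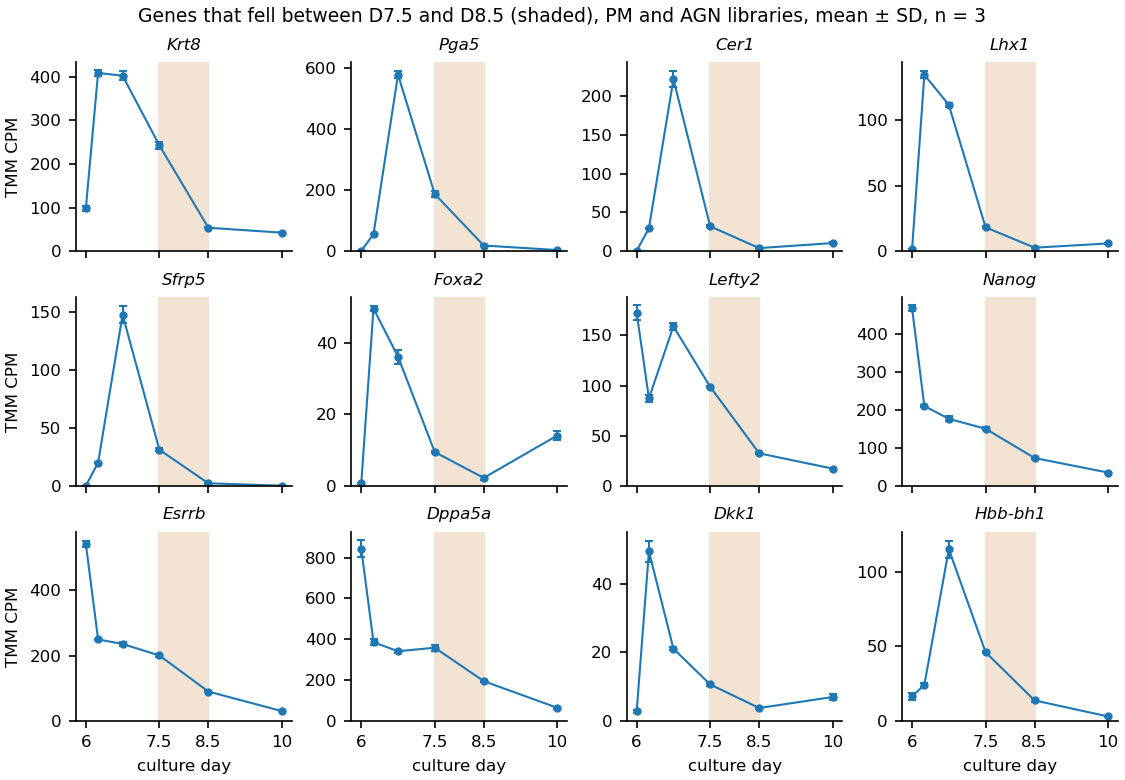
TMM-normalised CPM (vertical axis, from 0) of 12 genes that fell between D7.5 and D8.5 (shaded), in PM at D6 and in the AGN libraries from D6.25 to D10 (horizontal axis, culture day), as mean ± SD of 3 libraries. Krt8, Pga5, Cer1, Lhx1, Sfrp5, Foxa2, Dkk1 and Hbb-bh1 peaked at D6.25 or D6.75, whereas Nanog, Esrrb, Dppa5a and Lefty2 were highest in PM.

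Of 12 tailbud and presomitic mesoderm genes, 3 rose and 4 fell (median -0.69, or -0.56 with genes at the floor set to their bound). Without AGN D8.5 replicate 1, 2 rose and 2 fell, and 2 also fell without AGN D7.5 replicate 1. T, brachyury, the factor of early mesoderm and notochord, measured 17.9, 18.5 and 16.6 CPM at D7.5 and 9.45, 9.63 and 8.84 CPM at D8.5 (-0.92 ± 0.08). Evx1, a homeobox factor, went against the list, from 3.47, 4.42 and 3.65 to 13.3, 13.96 and 13.6 CPM (1.81 ± 0.12). Tbx6 and Msgn1, the factors that define presomitic mesoderm, were below 0.5 CPM in all 6 libraries and were not called.

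Proliferation genes had medians near 0. Of 17 mitosis genes none rose and 5 fell (median -0.06), and of 18 S phase genes 4 rose and 5 fell (median -0.03). Bub1b, a checkpoint kinase, fell by 0.28 ± 0.04 and Mcm7, a subunit of the replicative helicase, by 0.25 ± 0.03, while Ccne2, cyclin E2, rose by 0.58 ± 0.07. Among genes of cell cycle entry and exit, 5 of 12 rose and 2 fell, with Cdkn2c, an inhibitor of the G1 kinases, at 1.09 ± 0.12 and Mycn, which fell by 0.55 ± 0.04, at the ends. Glycolysis and hypoxia genes rose in 4 of 16 cases and fell in 3 (median -0.01). Of 72 cytosolic ribosomal protein genes 3 rose and 3 fell. With AGN D7.5 replicate 1, 2 or 3 left out, 1, 5 and 0 fell, and with D8.5 replicate 1 or 2 left out, 0 and 6 fell. Of 19 mitochondrially encoded genes 5 rose and none fell, though 2 or 3 rose with AGN D7.5 replicate 1 or 3 or D8.5 replicate 3 left out and 4 fell without D8.5 replicate 2. Of 33 replication-dependent histone genes 1 rose, or 0 to 2 with a D8.5 library left out.

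Markers of other cell types in the cultures mostly fell over the same day. Of 10 blood markers, 1 rose and 7 fell, and their summed level was 111 to 115 CPM at D7.5 and 84.2 to 87.8 CPM at D8.5. With AGN D7.5 replicate 2 or D8.5 replicate 1 or 2 left out, 4 fell. Hbb-bh1, an embryonic globin, measured 46.8, 45.6 and 45.8 CPM and then 14.6, 13.3 and 13.2 CPM (-1.74 ± 0.09). The member that rose was Runx1, which is also on the list of chondrogenic factors. Of 10 endothelial markers, 1 rose and 7 fell (364 to 403 CPM in sum, then 329 to 354 CPM), with Pecam1 at -0.57 ± 0.05 and the VEGF receptor Flt1, the member that rose, at 0.37 ± 0.08. Of 8 muscle markers 5 fell and none rose (43.8 to 44.2 CPM in sum, then 24.6 to 28.5 CPM), among them Actc1, cardiac actin, by 1.50 ± 0.13, and Myod1, which specifies the lineage, stayed near 1 CPM or below. Of 10 neural markers 2 rose and 5 fell (335 to 354 CPM in sum, then 205 to 228 CPM), and most of that sum was Sox2. Gata4, a factor of endoderm and heart, fell from 8.33, 8.65 and 9.68 to 1.41, 1.63 and 2.38 CPM (-2.36 ± 0.14). Of 8 lateral and cardiac markers 2 fell, Gata4 among them, and 1, Gata6, rose, a call lost without AGN D7.5 replicate 1 or 2 or D8.5 replicate 1 or 2. The adipocyte and epidermal lists, with 3 and 4 genes in the table, had 1 and 2 genes lower and none higher. The part of these cells in the gene lists above was not tested.

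Hox genes were mostly not called with AGN. Of 11 genes of paralogue groups 1 to 4, 1 rose (Hoxa3, 0.34 ± 0.09) and 3 fell, of 11 of groups 5 to 8, 2 fell, of 4 of group 9, 1 fell, and of 12 of groups 10 to 13, 6 fell. Without AGN D8.5 replicate 1, 3 genes of groups 1 to 4 rose, none of groups 5 to 8 fell and 3 of groups 10 to 13 fell. Without D7.5 replicate 3, 3 of groups 1 to 4 rose, and without D7.5 replicate 1 or 2, 1 of groups 5 to 8 fell. The call in group 9 was lost without D7.5 replicate 1 or 3 or D8.5 replicate 3, and 1 gene rose in groups 5 to 8 without D8.5 replicate 3 and in groups 10 to 13 without D7.5 replicate 1. Hoxc10 was the largest of these falls, from 2.98, 2.60 and 2.86 to 1.35, 0.815 and 1.22 CPM (-1.26 ± 0.19).

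The last question was which of these changes were larger or smaller with AGN than with CD1530. Over the same day, 6253 genes (36.5%) were called with CD1530, and the step differed between the agents for 1972 genes (11.5%), more positive with AGN for 1129 (6.59%) and more negative for 843 (4.92%). A gene counts here only by the test of the difference itself. Of the 4363 genes called with both agents, 4168 changed in the same direction. With CD1530, 9 of 10 endoderm and epithelial markers fell and 1 rose (median -1.23). Their step was more positive with AGN for 3 and more negative for 3. Of the 10 core pluripotency genes 9 fell and 1 rose with CD1530 (median -0.57), and the step was more positive with AGN for 2 and more negative for 5. The difference between the steps (AGN minus CD1530, log2) is given for each gene below.

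For the RAR targets, the step was more negative with AGN for 8 of 12 and more positive for 1, with a median difference of -1.50. Cyp26a1 rose with CD1530, from 71.6 ± 2.98 to 92.9 ± 2.56 CPM (0.38 ± 0.05), while it fell with AGN, a difference of -2.63 ± 0.10 (edgeR, adjusted p = 2.57e-23). Rarb rose with CD1530 by 0.62 ± 0.09, a difference of -2.83 ± 0.46. Crabp2 rose by 1.45 ± 0.08, a difference of -1.23 ± 0.12, and Dhrs3 differed by -0.87 ± 0.14. Cyp26b1 was the target whose step was more positive with AGN, by 0.76 ± 0.12. Among the genes of retinoid synthesis and transport, Stra6, the retinol transporter, differed by -1.61 ± 0.14. Aldh1a3 rose with both and further with CD1530, by 3.61 ± 0.06, a difference of -1.07 ± 0.09.

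The cartilage collagens had steps that were more positive with AGN for 5 of 8 and more negative for none. Col2a1 fell with CD1530, from 386 ± 7.27 to 300.0 ± 8.91 CPM (-0.37 ± 0.04), a difference of 1.02 ± 0.06 (edgeR, adjusted p = 1.56e-16). Col9a1 fell with CD1530 as well (-0.61 ± 0.05; difference 0.75 ± 0.07), and Col9a2 and Col11a2 differed by 1.02 ± 0.08 and 1.51 ± 0.22. Of the 13 cartilage matrix proteins, 7 differed, all more positive with AGN. Acan was at 5.44 ± 0.427 and 6.34 ± 0.642 CPM with CD1530, a step of 0.22 ± 0.12 that was not called, and the difference was 1.93 ± 0.16 (edgeR, adjusted p = 2.03e-12). Hapln1, not called with AGN, fell with CD1530 from 9.72 ± 0.731 to 2.31 ± 0.468 CPM, which gave the largest positive difference of the table under the rule for named genes, 2.10 ± 0.18. Chad differed by 1.56 ± 0.19. Among the transcription factors, Sox9 fell with CD1530 by 0.37 ± 0.05 and Sox6 by 0.95 ± 0.10, so that their steps differed by 0.48 ± 0.07 and 1.00 ± 0.14 although neither was called with AGN.

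Of the 14 tendon genes, 12 rose with CD1530 and the step was more positive with AGN for 7 and more negative for 1. Scx rose with CD1530 from 766 ± 10.9 to 1187 ± 14.1 CPM (0.63 ± 0.04), a step smaller than with AGN by 0.62 ± 0.05 (edgeR, adjusted p = 1.67e-11). Thbs4 and Postn also rose further with AGN, with differences of 0.81 ± 0.11 and 0.65 ± 0.12, and Ogn, osteoglycin, rose further with CD1530 (-0.75 ± 0.09).

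Of 14 contractile genes and YAP targets 11 rose with CD1530, with a median of 0.93, and the step was more negative with AGN for 7 and more positive for none. Acta2 rose by 2.12 ± 0.05 with CD1530, a difference of -0.80 ± 0.06, and Ankrd1 rose by 1.43 ± 0.11, a difference of -1.14 ± 0.17. Eln rose further with CD1530 too (3.19 ± 0.06; difference -0.42 ± 0.09). The sterol synthesis genes rose in all 15 cases with both agents, and 1 of them, Hmgcs1, differed (-0.18 ± 0.04). The ER genes rose in 14 of 16 cases with CD1530, and 3 of them differed, 2 more positive with AGN and 1 more negative; leaving out any 1 of the 12 libraries took the former to 1 or 0, and leaving out AGN D8.5 replicate 1 took the latter to 0. Of 10 FGF targets 7 fell and none rose with CD1530 (1 rose without CD1530 D7.5 replicate 2), and 6 differed, all more positive with AGN, among them Etv5 (0.53 ± 0.05) and Etv4 (0.63 ± 0.06).

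Of the 12 genes of the primed epiblast and of Nodal signalling, 5 had a step more positive with AGN and 4 a step more negative. Lefty1 and Lefty2 rose with CD1530, by 1.34 ± 0.04 and 0.85 ± 0.04, while both fell with AGN, with differences of -2.21 ± 0.07 and -2.46 ± 0.06 (edgeR, adjusted p = 1.30e-26 and 6.43e-30). Nodal differed in the same direction, by -0.55 ± 0.08. Fgf5, Otx2 and Dnmt3b went the opposite way. Otx2 fell with CD1530 from 14.01 ± 1.49 to 3.97 ± 0.673 CPM (-1.82 ± 0.11; difference 1.70 ± 0.13), Fgf5 fell by 1.48 ± 0.17 (difference 1.77 ± 0.19) and Dnmt3b by 0.66 ± 0.04 (difference 0.95 ± 0.06). The other genes with the largest positive differences under the rule for named genes were Vrtn, a factor tied to vertebral number, at 1.96 ± 0.17, and Pak6, a kinase, at 1.70 ± 0.29.

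Of the 5 largest negative differences under the rule for named genes, those of Zscan4c, Hoxb1, Csn3 and Cdx1 were in genes with few reads in the AGN libraries, which passed the count minimum through the CD1530 libraries, so no fold change with AGN is given for them. The other gene, Sox1, a neural plate factor, also passed the count minimum only through the CD1530 libraries. With AGN it had 48, 33 and 45 reads at D7.5 and 32, 18 and 9 reads at D8.5. These are 2.65, 1.53 and 2.22 CPM at D7.5 and 0.867, 0.917 and 0.477 CPM at D8.5. Sox1 rose with CD1530 from 5.17 ± 0.432 to 29.5 ± 1.62 CPM (2.52 ± 0.13), a difference of -3.94 ± 0.29. Zscan4c, a gene of a transient state of stem cells, had 0, 5 and 1 reads at D7.5 and 0, 0 and 0 reads at D8.5 with AGN, and 1.48 ± 0.195 and then 9.92 ± 1.41 CPM with CD1530. Hoxb1 rose with CD1530 from 8.79 ± 1.13 to 38.3 ± 0.696 CPM, and Cdx1, a caudal homeobox gene with 6, 6 and 3 reads at D7.5 and 0, 3 and 3 at D8.5 in AGN, from 4.87 ± 0.259 to 12.03 ± 0.481 CPM. Csn3, a casein gene, had 4, 4 and 6 reads at D7.5 and 6, 0 and 0 at D8.5 with AGN and rose with CD1530 from 11.1 ± 0.860 to 29.2 ± 2.47 CPM. Among Hox genes of groups 1 to 4 and 5 to 8, 8 of 11 rose with CD1530 in each, and 5 and 7 had a step more negative with AGN, such as Hoxc4 (-2.25 ± 0.24) and Hoxb8 (-1.89 ± 0.20); none had a step more positive.

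**Figure D4:**
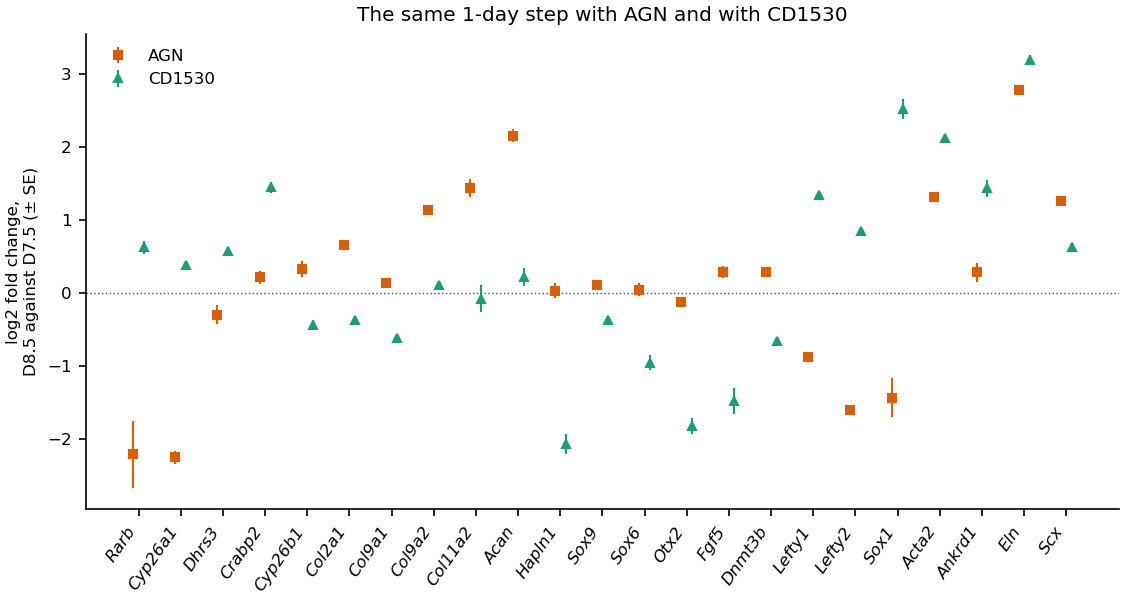
Log2 fold change of D8.5 against D7.5 (vertical axis) with AGN (squares) and with CD1530 (triangles) for 23 genes, with bars of 1 SE from the edgeR fit of all 33 libraries. The RAR targets from Rarb to Crabp2 lie lower with AGN than with CD1530, the cartilage genes from Col2a1 to Sox6 lie higher with AGN, and Lefty1, Lefty2, Sox1, Acta2 and Ankrd1 lie lower with AGN.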

How the data were processed

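RNA from whole monolayer cultures was sequenced in 33 libraries of 11 groups, 3 replicates each. The authors aligned the reads to GRCm38 with STAR and deposited featureCounts counts per gene, unnormalised, for 17120 genes. The annotation release, strand setting and treatment of multimapping reads are not given in the sources used here. Gene IDs were matched to GENCODE M21 (17117 of 17120). All libraries were fitted in edgeR 4.0.16 (R 4.3.3; TMM factors, filterByExpr, which removed 0 genes, robust quasi-likelihood test, group design), with Benjamini-Hochberg adjustment over all genes and a threshold of 0.05. Values are TMM-normalised CPM, and fold changes are log2 with their SE. The step was D8.5 against D7.5 with AGN, the same with CD1530, and the difference of the 2 steps. In simulated counts for the AGN step (17120 genes), 156 of 200 changed genes were recovered, 29 of 50 at 1.25-fold and 49 of 50 at 4-fold, with 8 false calls among 164. The simulation changed a far smaller share of genes than the 42.1% called in the data, and it held no library that stood apart. Its rates therefore need not hold for the data.

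Genes named by rule, all protein-coding and called in the test ranked, were the 10 largest rises and falls of the AGN step (at least 50 mean counts over its 6 libraries, no overlap between the times), the 5 largest differences in each direction (at least 50 mean counts over the 12 libraries, no overlap between the times with at least 1 agent) and the 5 largest gains and losses of the AGN step per kb of exon. Lists were described by counts, medians and their leading and defining members, and a few further members were chosen after their values were seen; values of some members are not reported here. The libraries compared and the gene lists were chosen with earlier results of these data known. A gene with 3 or fewer counts in every library of a group was given by its counts or as a bound. The replicates are described as biological, but no source used here ties a number to a separate differentiation. The p-values rest on a spread between replicates that was estimated over all 33 libraries and may be technical in part. Same-numbered libraries did not deviate together, so no pairing was used. Promoter sequences are from RefSeq (GRCm38.p6). Alternatives were DESeq2 1.42.0, other scalings and filters, thinning to equal depth, a replicate block, a minimum fold change and leaving out each library in turn. Fitting only the libraries compared was a further alternative.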

Additional observations from a re-analysis of the deposited data

Results flagged for a closer look

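The step from D7.5 to D8.5 differed between AGN and CD1530, by the test of the difference itself (edgeR quasi-likelihood, Benjamini-Hochberg over all genes), for 1972 genes. Of the genes whose difference is given above as a value, 20 had a step more positive with AGN and 17 a step more negative, with an adjusted p of at most 0.0046. On the log2 scale, AGN minus CD1530, the steps more positive with AGN were those of Hapln1 (2.10), Vrtn (1.96), Acan (1.93), Fgf5 (1.77), Pak6 (1.70), Otx2 (1.70), Chad (1.56), Col11a2 (1.51), Col9a2 (1.02), Col2a1 (1.02), Sox6 (1.00), Dnmt3b (0.95), Thbs4 (0.81), Cyp26b1 (0.76), Col9a1 (0.75), Postn (0.65), Etv4 (0.63), Scx (0.62), Etv5 (0.53) and Sox9 (0.48). The steps more negative with AGN were those of Sox1 (-3.94), Rarb (-2.83), Cyp26a1 (-2.63), Lefty2 (-2.46), Hoxc4 (-2.25), Lefty1 (-2.21), Hoxb8 (-1.89), Stra6 (-1.61), Crabp2 (-1.23), Ankrd1 (-1.14), Aldh1a3 (-1.07), Dhrs3 (-0.87), Acta2 (-0.80), Ogn (-0.75), Nodal (-0.55), Eln (-0.42) and Hmgcs1 (-0.18). Zscan4c, Hoxb1, Csn3 and Cdx1 were also called more negative with AGN. They had few reads in the AGN libraries and passed the count minimum through the CD1530 libraries, where they rose. A step with AGN could hardly be measured in them, so no size is given and their calls are not used as support. Sox1 passed the count minimum through the CD1530 libraries as well, with 9 to 48 reads in the AGN libraries. Its difference is listed with its size but is not used as support either. Each group held 3 libraries, and Dixon's test of a single sample was not run.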

How the results depend on the processing

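Over the alternatives that kept every library and no minimum fold change, the AGN step had 6744 genes called (depth thinned) to 7637 (library totals in place of TMM factors). With DESeq2 it had 6958, 3479 in each direction. Under library totals the median of all genes moved to -0.09 with AGN, -0.04 with CD1530 and -0.03 for the difference, and the calls split into 2461 higher and 5176 lower with AGN, 2566 and 3766 with CD1530, and 839 and 1140 for the difference. With each library left out in turn, the AGN step had 6204 to 6651 calls (3217 to 3382 higher, 2987 to 3319 lower), the CD1530 step 5430 to 5547 (2805 to 2864 and 2624 to 2708) and the difference 1655 to 1830 (924 to 1043 and 708 to 808).

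A minimum absolute log2 fold change of 1 left 862 genes with AGN (364 higher, 498 lower), 840 with CD1530 (408 and 432) and 343 for the difference (106 and 237), by construction fewer. With the replicate number as a block, 7126 genes were called with AGN, against 7203 without. The deviations of same-numbered libraries correlated at -0.02, -0.15 and -0.15 over 13705 genes, and no library correlated best with its own number. The highest correlation, 0.15, was between AGN D7.5 replicate 3 and AGN D8.5 replicate 2. Of 241 single-gene results under 4077 alternative settings in all, 3914 kept their direction and side of the threshold. The sign changed for Hapln1 with AGN (-0.054 under library totals, and -0.019 to 0.091 with 1 library left out, the former without AGN D8.5 replicate 2) and Sox6 with AGN (-0.040 under library totals), neither called; the cause was not tested.

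Genes with few reads, such as Rarb and Tnmd, were limited by depth, and the smallest library held 17116084 counts.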
